A study of Mus musculus with 6 samples.

Results

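Of the 37997 consensus SALL4 regions of mouse embryonic stem cells, 1753 lay in gene deserts, here stretches of chromosomes 1 to 19 more than 300 kb from every protein-coding gene. A consensus region was a merged interval present in the peak lists of both wild-type libraries and touching no interval of either knockout list, and a region was placed by its midpoint. These are 4.81% of the 36443 consensus regions on chromosomes 1 to 19 (95% Wilson interval 4.60 to 5.03, counting error only). The deserts numbered 491 and made up 338.7 of 2394 Mb, or 14.1% of the sequence between the first and last wild-type interval of each chromosome.

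SALL4 was mapped by CUT&RUN, in which an antibody directs a nuclease to release the DNA around its target in permeabilised cells. The wild-type line carries a floxed but intact Sall4 gene (Sall4 F/F), the knockout line lacks Sall4 (Sall4 -/-), and both were grown in 2i and LIF, conditions that hold the cells in the naive pluripotent state. Each line is 1 source of cells and had 2 SALL4 libraries, and the 2 IgG libraries, whose antibody entry in the labels names SALL4, were not analysed here. The lists carry no read totals and the labels do not say whether replicates were separate cultures. The summit pileups recovered from the lists were low, with a median of 11 fragments at the members in each wild-type list and a range of 4 to 70 in replicate 1 and 4 to 66 in replicate 2.

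SALL4 is a zinc-finger transcription factor that binds AT-rich DNA through its last zinc-finger cluster and recruits the repressive NuRD complex. Gene deserts are long stretches without coding genes. Many flank regulators of development or neuronal adhesion genes, and enhancers acting on genes at long range have been mapped in some of them.

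Sequence at the members is shown where a region fell on a promoter window of RefSeq (build GRCm38.p6, 250 bases before to 50 after a transcript start), since these are the places where SALL4 intervals meet a transcript start inside a desert. Members touched 8 of the 589 such windows in deserts, 1.36% (Wilson interval 0.690 to 2.66), against 956 of 30807 windows elsewhere on these chromosomes, 3.10% (2.92 to 3.30). Desert windows belong to non-coding genes by definition, and 4 of the 8 are printed, together with the window of Nr5a2, a coding gene beside a densely bound desert. Capitals mark ATATT or its complement AATAT, a 5-letter AT-rich word searched on both strands.
Gm38838, chr6:81446208-81446507, minus strand: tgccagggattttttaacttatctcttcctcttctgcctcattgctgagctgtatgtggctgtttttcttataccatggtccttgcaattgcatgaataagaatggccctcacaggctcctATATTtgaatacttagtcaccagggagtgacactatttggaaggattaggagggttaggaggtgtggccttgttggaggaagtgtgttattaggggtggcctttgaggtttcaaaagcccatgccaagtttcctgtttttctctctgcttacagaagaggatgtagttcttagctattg
C330004P14Rik, chr10:15791527-15791826, plus strand: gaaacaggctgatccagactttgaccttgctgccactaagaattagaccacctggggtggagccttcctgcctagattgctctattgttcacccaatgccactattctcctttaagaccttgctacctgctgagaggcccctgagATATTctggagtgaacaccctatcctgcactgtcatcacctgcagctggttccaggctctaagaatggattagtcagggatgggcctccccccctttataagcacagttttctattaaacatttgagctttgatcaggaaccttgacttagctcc
1190028D05Rik, chr8:52356361-52356660, plus strand: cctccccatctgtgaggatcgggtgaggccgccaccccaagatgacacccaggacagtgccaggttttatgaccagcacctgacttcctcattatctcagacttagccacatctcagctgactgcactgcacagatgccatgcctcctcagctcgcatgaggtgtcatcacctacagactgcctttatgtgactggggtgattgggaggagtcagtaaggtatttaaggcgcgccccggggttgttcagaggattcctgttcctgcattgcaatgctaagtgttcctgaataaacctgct
Gm40421, chr12:51004863-51005162, minus strand: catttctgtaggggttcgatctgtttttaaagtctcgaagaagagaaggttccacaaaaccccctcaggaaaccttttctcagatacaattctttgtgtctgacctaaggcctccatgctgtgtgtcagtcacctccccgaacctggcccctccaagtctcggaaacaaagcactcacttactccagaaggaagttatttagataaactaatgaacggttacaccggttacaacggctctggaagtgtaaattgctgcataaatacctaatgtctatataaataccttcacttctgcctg
Nr5a2, chr1:136953581-136953880, minus strand: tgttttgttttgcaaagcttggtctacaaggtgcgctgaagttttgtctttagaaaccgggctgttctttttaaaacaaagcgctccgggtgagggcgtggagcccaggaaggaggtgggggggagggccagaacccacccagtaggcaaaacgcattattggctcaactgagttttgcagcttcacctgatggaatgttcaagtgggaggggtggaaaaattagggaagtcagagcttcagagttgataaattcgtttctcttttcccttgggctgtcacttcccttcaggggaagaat

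The word occurred in 4 of the 8 desert windows with a member, against 50.8% of all 589 desert windows and 24.7% of the 31396 windows on these chromosomes. Desert windows had a median A+T content of 56.7% and windows elsewhere 46.7%. A match is a description of the letters and no binding site. The member over the Gm38838 start, between Lrrtm4 and Gcfc2, had fold enrichments of 20.7 and 16.3 in wild-type replicates 1 and 2. Its summit lay inside the printed window in replicate 1 and outside it in replicate 2. Here and below, fold enrichment is the authors' ratio of the summit's fragments to the local background, and it is compared only within a list. At C330004P14Rik, between the neuromedin B receptor gene Nmbr and Cited2, the member covered the whole window and the values were 10.3 and 10.9. The 1190028D05Rik window, between Tenm3 and Aga, also lay wholly inside its member, with values of 9.65 and 13.1. In both lists, however, the summit that gave the value lay outside the printed window. At Gm40421, in the stretch between Prkd1 and G2e3, the member was weak in both lists, at 4.13 and 5.44. The same member also touched the window of 1700008C04Rik, another of the 8.

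The first question was whether deserts hold SALL4 intervals at the density of the rest of the chromosomes. They held fewer. The desert intervals numbered 2456 in wild-type replicate 1, 2185 in wild-type replicate 2, and 0 in each knockout list, whose 34 and 39 intervals all lay off chromosomes 1 to 19. The wild-type mean was 2320.5 ± 192 (SD, n = 2), and as the knockout lists were empty over all of chromosomes 1 to 19, the difference is not particular to deserts. Exact permutation of the genotype labels (two-sided) gave p = 0.3333, its floor with 2 against 2.

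Replicate 1 had 7.25 intervals per Mb in deserts and 24.5 elsewhere on chromosomes 1 to 19, and replicate 2 had 6.45 and 21.5. The 2 ratios were 0.296 and 0.301. In consensus regions the densities were 5.18 and 16.9 per Mb, a ratio of 0.307. The ratio was below 1 on all 19 chromosomes in each list, and in the consensus it ran from 0.185 to 0.416 with a median of 0.305. Desert density was lowest on chromosome 16, at 3.24 per Mb, and highest on chromosome 11, at 8.61 per Mb. Regions are not replicates, so no test of deserts against the rest was made.

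Density was already lower with distance from coding genes short of the 300 kb limit. Consensus regions numbered 23.0 per Mb over 0 to 10 kb from a coding gene, 18.4 inside coding genes, 14.2 over 30 to 100 kb, 10.04 over 100 to 200 kb and 8.22 over 200 to 300 kb. Inside the deserts the values were 6.52 per Mb over 300 to 400 kb, 5.62 over 400 to 600 kb and 3.94 over 600 kb to 1 Mb. Farther out the consensus values were 4.01 per Mb over 1 to 1.5 Mb and 6.21 per Mb over 1.5 Mb. In the last 3 classes replicate 1 had 5.67, 5.70 and 7.67 intervals per Mb and replicate 2 had 5.18, 4.94 and 7.09, so the step past 1 Mb was slightly upward in one list and downward in the other, and the last class was the highest of the 3 in both. The farthest class is small, 17.1 Mb in 27 deserts. Its 106 members lay in 22 of them, and 2 of these held 11 and 10. At the limit itself, the 44 members at 300 to 310 kb had median fold enrichments of 6.89 and 5.83, and the 80 regions at 290 to 300 kb had 6.61 and 6.40.

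**Figure D1:**
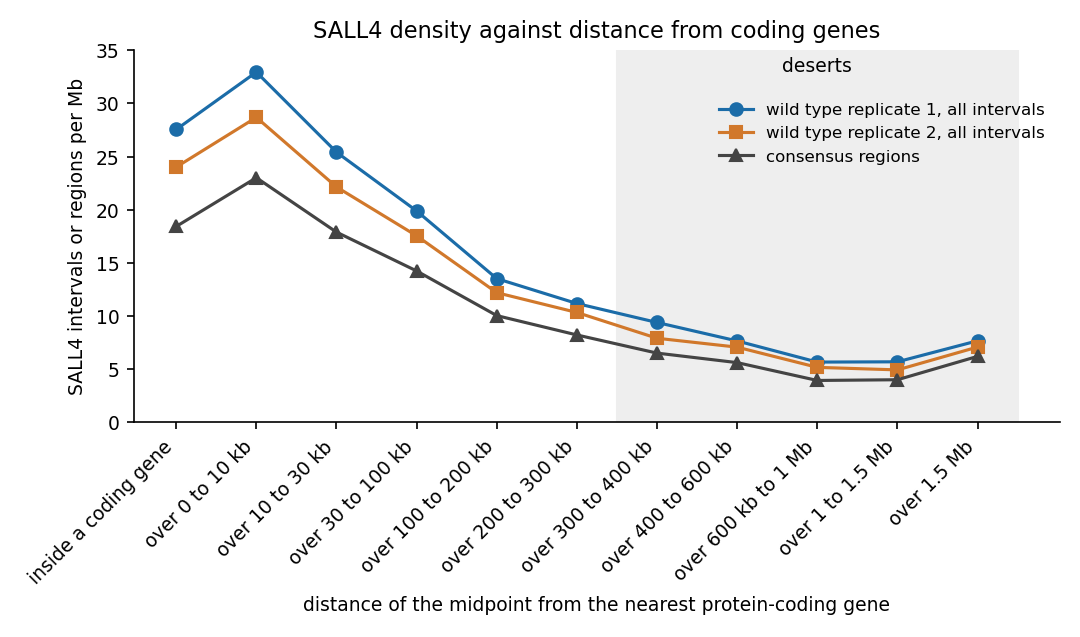
Intervals of each wild-type list and consensus regions per Mb of sequence, by distance of the midpoint from the nearest protein-coding gene; the grey area marks the deserts. The lines have like shapes, with consensus values from 23.0 per Mb within 10 kb of a gene down to 3.94 per Mb at 600 kb to 1 Mb.

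The second comparison concerned strength. Members were slightly stronger than other consensus regions in both lists. Their median fold enrichment was 7.58 in replicate 1 (quartiles 5.51 and 12.2) against 7.11 elsewhere (5.41 and 10.8). In replicate 2 it was 6.88 (5.03 and 10.7) against 6.54 (4.76 and 9.52). The ratios of medians, 1.07 and 1.05, are small beside the spread within either class, and the 2 distributions overlap almost wholly. On single chromosomes the ratio was above 1 on 14 of 19 in replicate 1, on 15 in replicate 2 and on 12 in both.

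Pileup, which does not depend on the background, showed the difference mainly among the strong regions. The medians were 11 fragments in both classes in replicate 1, and 11 against 10 in replicate 2. At least 20 fragments were reached by 23.6% of members (Wilson interval 21.6 to 25.6) against 19.5% of other regions (19.1 to 19.9) in replicate 1, and by 19.97% (18.2 to 21.9) against 16.2% (15.9 to 16.6) in replicate 2. The local background also differed. It exceeded the lowest background of the list by over 1% at 38.8% and 41.6% of the desert intervals in replicates 1 and 2, against 56.9% and 56.3% of the others, and its part in the fold enrichments was not tested.

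Desert regions formed a larger share of the strong end of the ranking. Ordered by the worse of their 2 ranks, the 1000 strongest consensus regions held 67 members, 6.70% (Wilson interval 5.31 to 8.42), and the 10000 strongest held 576, 5.76% (5.32 to 6.23). The 5000 weakest held 187, 3.74% (3.25 to 4.30), against 4.81% overall. Members were also wider, with a median of 365 bp (quartiles 263 and 516) against 325 bp (235 and 462). In each list more desert intervals than others had several summits, 15.4% against 12.1% in replicate 1 and 16.8% against 11.7% in replicate 2.

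**Figure D2:**
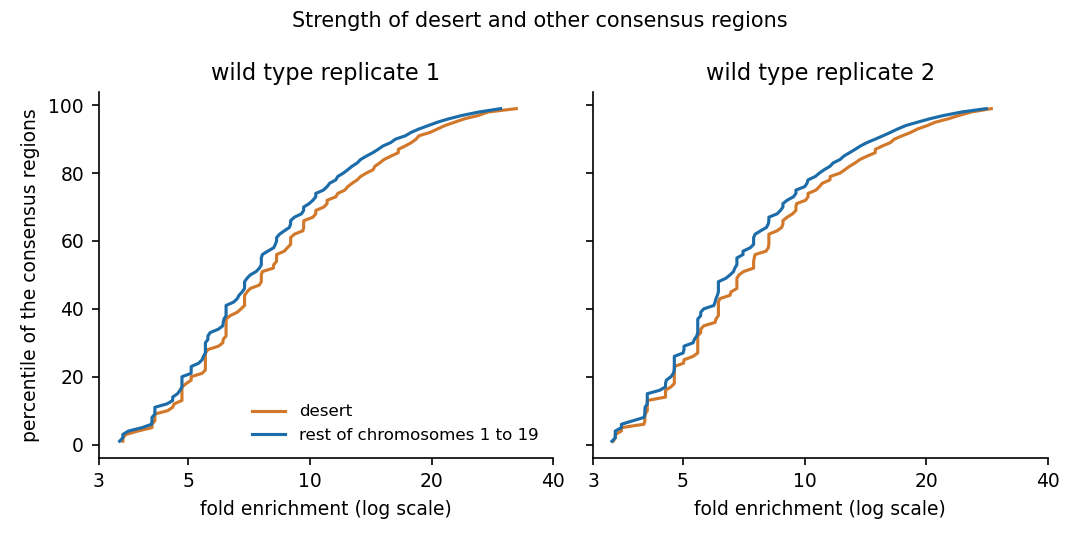
Percentiles of fold enrichment (log scale) of the desert and other consensus regions in each wild-type list. The desert line lies to the right of the other over most of its course in both panels, with medians of 7.58 against 7.11 and 6.88 against 6.54.

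Replicates overlapped in deserts about as often as elsewhere. Of the desert intervals of replicate 1, 1790 of 2456 (72.9%, Wilson interval 71.1 to 74.6) overlapped an interval of replicate 2, and elsewhere 70.2% (69.8 to 70.6) did. In the other direction 80.6% (78.9 to 82.2) of desert intervals and 79.3% (78.9 to 79.7) of the rest were found. Merged over all lists, deserts held 2842 regions, of which the members are 61.7%, beside 59.1% for all regions of chromosomes 1 to 19. In replicate 1 alone lay 666 and in replicate 2 alone 423. Across members the fold enrichments of the replicates had a Spearman's rho of 0.814, and 0.767 across the other consensus regions. These describe agreement across regions, which share both libraries.

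The 10 strongest members took places 24 to 137 when all consensus regions of chromosomes 1 to 19 were ordered by the worse of their 2 fold enrichment ranks. The first lay between Gpr149 and Mme, the gene of the peptidase neprilysin, at chr3:62938220-62939377, 333 kb from the nearest coding gene. Its fold enrichments were 44.6 and 37.4, on pileups of 65 and 55 fragments. Next came chr14:83007866-83009054, between Olfm4 and the protocadherin gene Pcdh17, 1435 kb from a coding gene, with 38.6 and 39.4. The region chr15:19863945-19864657, between the cadherin genes Cdh10 and Cdh12, had 37.9 and 36.7. On chromosome 4, chr4:51868530-51869373, between Cylc2 and the condensin gene Smc2, had 39.3 and 35.4.

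Both sides of Myc, the growth-promoting transcription factor gene, were represented among the 10 strongest. At chr15:61388533-61389303, on the A1bg side, the values were 37.9 and 34.0, and at chr15:62958526-62959481, on the Gsdmc side, 34.0 and 33.7. The desert on the A1bg side held 10 members and that on the Gsdmc side 8. The other 4 lay between Ptger4 and Dab2 (35.1 and 34.0), Clec14a and Sec23a (33.3 and 33.2), Cdh8 and Cdh11 (32.4 and 32.6), and Cyp7b1 and Armc1 (32.0 and 32.7). Of the 10, 1 lay in an annotated gene, the long non-coding RNA gene Gm30687. Among all 1753 members, 14.2% lay in a non-coding gene of any type, and such genes covered 10.8% of the desert sequence.

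The members were unevenly spread over the deserts. At least 1 was found in 323 of 491 deserts (65.8%), and at least 10 in 55 (11.2%). Those 55 held 800 members, 45.6% of the total, on 31.2% of the desert sequence. As they were picked by these counts, a share of members above the share of sequence follows by construction. Empty deserts were short, with a median of 125 kb against 406 kb for all deserts, and of the 213 deserts of at least 500 kb only 16 were empty. Among these 213 the median was 4.19 members per Mb (quartiles 2.00 and 6.75) and the range 0 to 33.9. Across them the densities of the 2 lists had a Spearman's rho of 0.929, a description over deserts that share both libraries. Shorter deserts, which lie closer to genes, held 7.09 members per Mb in all and the longer ones 4.81.

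**Figure D3:**
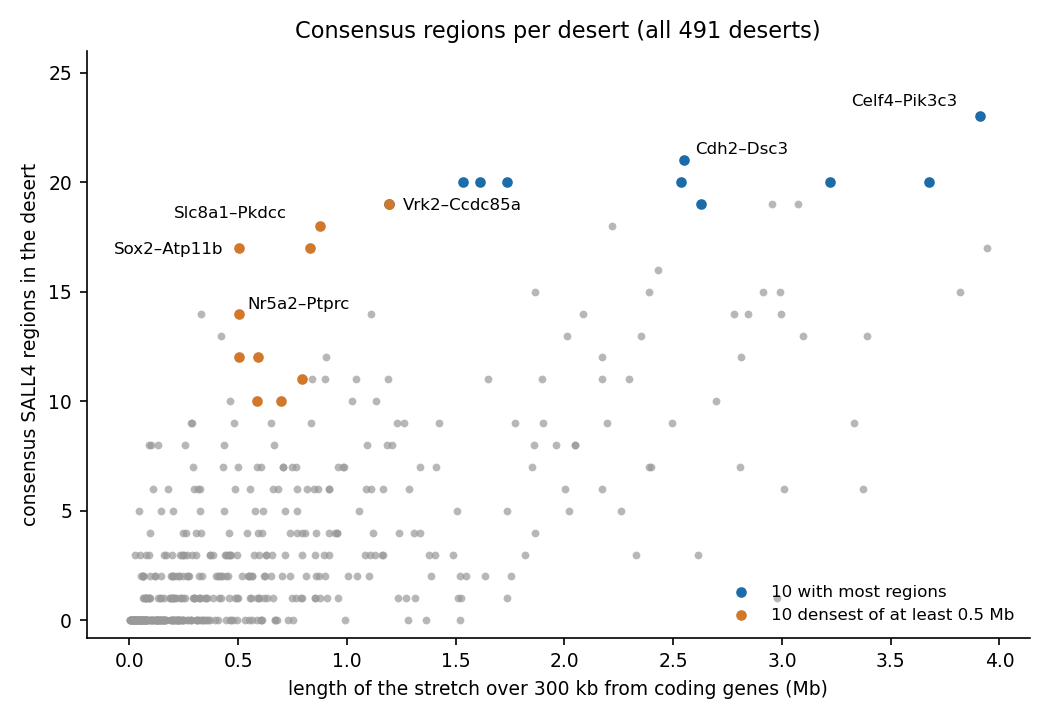
Number of consensus regions in each of the 491 deserts against the length of the stretch more than 300 kb from coding genes. Deserts with most regions are long (blue, 19 to 23 regions; Vrk2–Ccdc85a is in both sets and drawn orange), while the densest (orange) are mostly under 1 Mb, with Sox2–Atp11b and Nr5a2–Ptprc at 17 and 14 regions in about 0.50 Mb.

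By density, the most bound desert of at least 500 kb lay beside Sox2, the transcription factor gene required for pluripotency, with Atp11b, a phospholipid flippase gene, on its other side (chr3:34952462-35454043). It held 17 members in 0.502 Mb, or 33.9 per Mb, and 22 and 21 intervals in replicates 1 and 2. The strongest, at chr3:35392406-35393769, lay 741 kb from Sox2 in the long non-coding RNA gene Gm38512, with fold enrichments of 38.1 and 30.03 on 70 and 56 fragments. The other 16 ran from 3.07 to 10.8 in replicate 1 and from 4.02 to 9.34 in replicate 2. The medians over the desert, 5.08 and 6.12, were below those of all members, though some of the 16 were above them. Consensus regions also numbered 20 in the 300 kb next to Sox2 and 6 in the 300 kb next to Atp11b.

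The second lay between Nr5a2, an orphan nuclear receptor gene active in pluripotent cells, and Ptprc, the leukocyte gene for CD45 (chr1:137260449-137762858). It held 14 members, 27.9 per Mb, and 17 intervals in each list. Fold enrichments ran from 4.82 to 24.1 in replicate 1 and from 4.02 to 17.6 in replicate 2. Of 51 promoter windows found for 44 genes flanking the deserts chosen for naming, a consensus region touched 1, the Nr5a2 window printed above. Among all 31396 windows on these chromosomes the share was 3.07%. The other Nr5a2 window was not touched, and some flanking genes, among them Celf4 and Cdh2, had no window. The region on the printed Nr5a2 window, at chr1:136953518-136954288, had 27.0 and 22.7. The 300 kb on the Nr5a2 side held 7 consensus regions and those on the Ptprc side 0.

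The third, Nbea to Tm4sf1, held 12 members (23.9 per Mb). Nbea encodes neurobeachin, a protein of membrane traffic in neurons. All 3 leading deserts were just over 500 kb long, so their place rests on the length limit. Of the shorter deserts with at least 5 members, the densest was Enc1 to Arhgef28, with 5 members in 45.6 kb, followed by Clec14a to Sec23a and Prkd1 to G2e3, with 8 members each in 89.1 and 99.0 kb.

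The desert between Slc8a1, the gene of the cardiac sodium-calcium exchanger, and Pkdcc, which encodes a secreted kinase needed for bone growth, had the highest median fold enrichments of the 10 densest in both lists. Its 18 regions gave 20.5 per Mb, with 20 and 28 intervals in the lists. The medians were 13.3 and 8.96. Neighbours at chr17:82272691-82273451 and chr17:82273749-82274445 had 29.8 and 22.6, and 34.4 and 27.2. The 300 kb flanks held 0 consensus regions on the Slc8a1 side and 1 on the Pkdcc side.

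Abca13 to Vwc2, a gene for a secreted BMP antagonist, followed with 17 members (20.5 per Mb), and Plekhb2 to Hs6st1, a heparan sulfate sulfotransferase gene, with 12 (20.4 per Mb). In the latter, 25 consensus regions lay in the 300 kb on the Hs6st1 side and 0 on the Plekhb2 side. The remaining 4 of the 10 densest were Pcmtd1 to Sntg1, a syntrophin gene (10 members, 17.1 per Mb), Vrk2 to Ccdc85a (19, 15.9 per Mb), Nox3 to Arid1b, a gene of the BAF remodelling complex (10, 14.3 per Mb), and Gm4868 to Tmem132c (11, 13.9 per Mb).

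**Figure D4:**
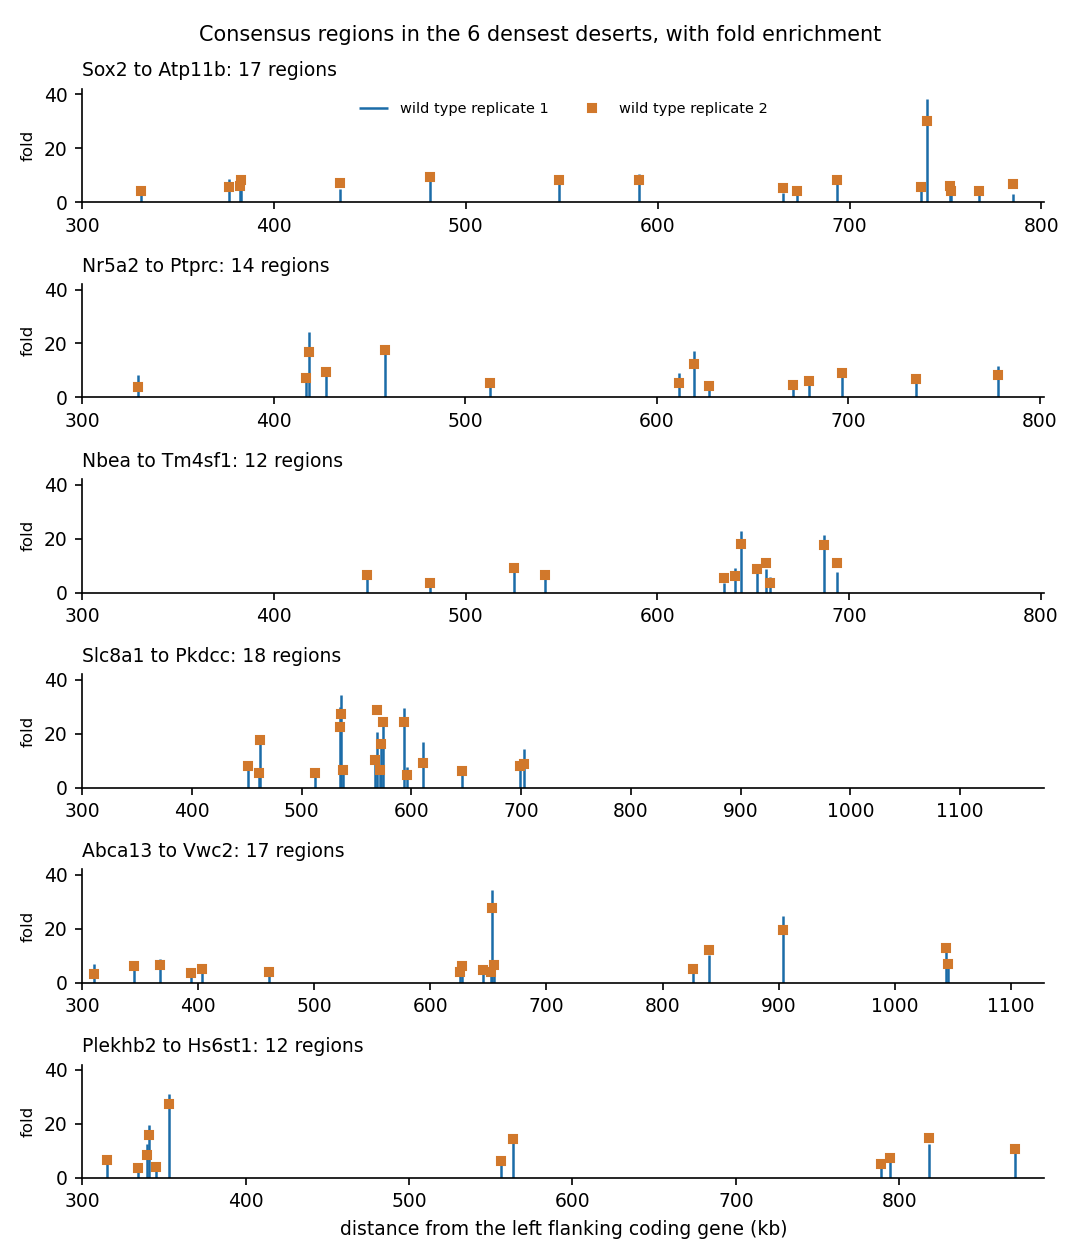
Consensus regions of the 6 densest deserts of at least 500 kb by distance from the left flanking coding gene (kb); lines give the fold enrichment in wild-type replicate 1 and squares that in replicate 2. The Sox2 desert has 1 strong region at 741 kb, whereas the Slc8a1 desert has several above 20 grouped between 530 and 600 kb.

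By number, the leading deserts were between 1.19 and 3.91 Mb long. Celf4 to Pik3c3 on chromosome 18, between genes for a neuronal RNA-binding protein and a lipid kinase of autophagy, held 23 members in 3.91 Mb, with 31 and 26 intervals in the lists. Cdh2 to Dsc3, between N-cadherin and a desmosomal cadherin, held 21 in 2.55 Mb. Another 6 deserts held 20 each, namely Cobl to Pom121l12, Bcl11a to Fancl, Cntn5 to Jrkl, Got2 to Cdh8, Dsel to Cntnap5a and Cntnap5b to Cdh20. Of the deserts with 19 members, Vrk2 to Ccdc85a had the highest density. The first place depends on the list, since in replicate 2 alone Cntnap5b to Cdh20 led with 29. Each of the 11 deserts over 3 Mb held members, from 6 to 23.

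The 5 longest deserts had densities on both sides of the median of 4.19 per Mb. Celf4 to Pik3c3 had 5.88 per Mb and Cntnap5b to Cdh20 (3.68 Mb) had 5.44. Pcdh20 to Pcdh9 (3.94 Mb) had 17 members, or 4.31 per Mb, Olfm4 to Pcdh17 (3.82 Mb) had 15, or 3.93 per Mb, and Tenm3 to Aga (3.39 Mb) had 13, or 3.84 per Mb. Tenm3, a teneurin gene for synaptic adhesion, had 47 consensus regions on it or up to 10 kb away, while the 300 kb on its side of the desert held 0. The longest empty deserts were Epha6 to Nsun3 (1.52 Mb), Cdh9 to Cdh10 (1.36 Mb), Api5 to Lrrc4c (1.28 Mb), BC030500 to Aadat (0.992 Mb) and Mmut to Ptchd4 (0.754 Mb). Epha6 to Nsun3 had 0 intervals in either list, and the other 4 had 1 or 2 in replicate 1 and 0 or 1 in replicate 2.

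Flanking genes were then read by 3 lists. Of 106 developmental transcription factor genes in the gene table on these chromosomes, 50 flanked a desert, against 874 of all 20665 coding genes. Of their 55 deserts 39 (70.9%) held a member, beside 65.8% of all deserts. Their deserts of at least 500 kb had a median of 4.198 members per Mb, against 4.189 over all. At least 10 members lay in 4 of the 55, where 11.2% of all deserts have as many. Their 55 deserts were shorter, with a median of 327 kb against 406 kb, and held 5.63 members per Mb in all, against 5.18 in all deserts. The 4 were beside Bcl11a, a zinc-finger regulator of blood and brain (20), Sox2 (17), the nuclear receptor gene Nr2f1 (14) and Zeb2, a repressor of epithelial genes (13).

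Of 89 adhesion and axon guidance genes 65 flanked a desert, and 71 of their 91 deserts (78.0%) held a member. These deserts were long, with a median of 1270 kb against 406 kb over all, and at a median of 4.14 per Mb in the 64 of at least 500 kb their density was close to that of all deserts of that length. Pooled over all 91 it was 4.20 per Mb, against 5.18. At least 10 members lay in 21 of the 91, where 11.2% of all deserts have as many, and they flank 23 genes of the list. Besides those named above they are Cdh6 and Cdh9, which flank 1 desert with 19 members, Pcdh7, which has 19 on its G6pd2 side and 14 on its Stim2 side, Epha7 and Efna5 with 15 each, Tenm4 with 15, Luzp2 with 18, Tenm2 with 14, Lrfn5 with 13, Ctnna2 and Slitrk1 with 12 each, Lingo2 with 11 and Pcdh18 with 10. Of 74 channel and receptor genes 29 flanked a desert, and 21 of 29 deserts (72.4%) held a member, beside 65.8% of all deserts. Their median was 2.88 per Mb in 15 deserts of at least 500 kb, against 4.19, and their pooled density 3.62 per Mb, against 5.18. Of the 29, 1, beside the glutamate receptor gene Grik2, held at least 10 (14). The lists were not tested against each other or against all genes.

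The third question was clustering. Members lay far apart as a rule but often in pairs and small groups. Neighbouring members of 1 desert had a median distance of 37.7 kb (quartiles 5.64 and 146 kb, 1430 pairs), against 14.9 kb (3.54 and 55.5 kb) between neighbours elsewhere, where density is higher. Runs of at least 3 members with neighbours within 20 kb numbered 128 and held 497 members, 28.4% (Wilson interval 26.3 to 30.5), against 56.3% (55.8 to 56.8) of the other regions. The share in deserts was 18.7% and 43.6% with gaps of 10 and 50 kb, and 6.12% over intervals of at least 10-fold enrichment. In windows of 100 kb the variance of the count was 2.05 times its mean in deserts and 3.96 times elsewhere. Of the desert windows 71.0% were empty, and 32 of 3147 held at least 5 members.

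**Figure D5:**
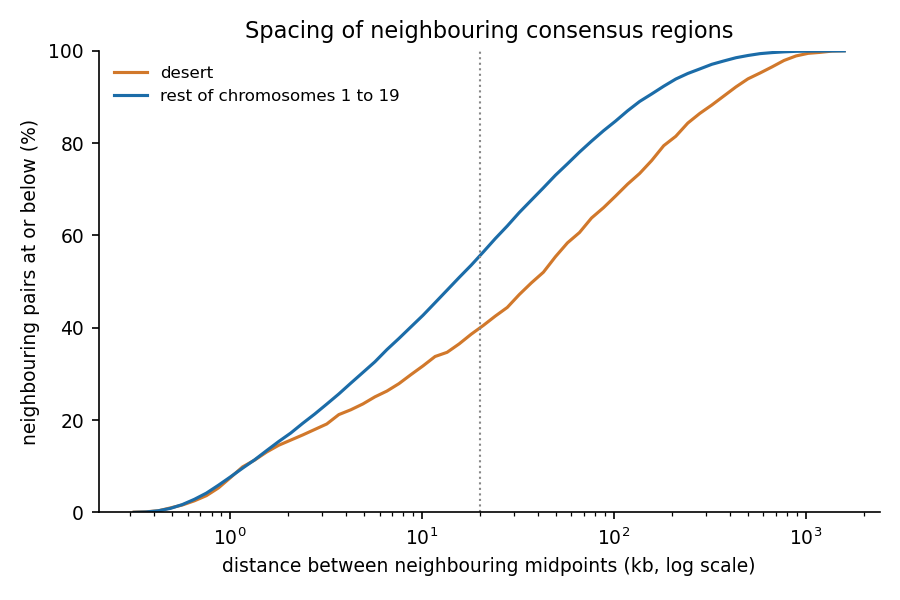
Cumulative share of neighbouring pairs of consensus regions by distance between midpoints (kb, log scale); the dotted line is at 20 kb. At 20 kb the share is 40.3% in deserts and 55.6% elsewhere.

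Isolated members were also frequent. The nearest consensus region of any kind was over 100 kb away for 365 members, 20.8%, against 5.32% of the others. Within the deserts of at least 500 kb, the middle 50% of the length held 667 of 1371 members, 48.7% (46.0 to 51.3).

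Of the 128 runs, 71 had 3 members, 27 had 4 and 30 had more. The 5 runs with most members, the shorter first among equals, follow. At chr13:110715838-110748102, 8 members spanned 32.3 kb between Plk2, a kinase gene, and Actbl2, 315 kb from Plk2, with median fold enrichments of 10.3 and 8.50. The 8 members at chr12:50981266-51018355 spanned 37.1 kb about midway between Prkd1 and G2e3. That position follows from the 300 kb rule, as the desert is short. The medians were low, at 5.51 and 5.10, but the highest values were 13.96 in replicate 1 and 21.12 in replicate 2. This run includes the Gm40421 start printed above. In the Slc8a1 desert, 8 members at chr17:82305341-82349038 spanned 43.7 kb, with medians of 16.99 and 13.2. Of the 4 runs with 7 members, the shortest lay at chr1:113947441-113965905 in the Dsel to Cntnap5a desert, 1719 kb from the nearer gene, and the next at chr1:7494143-7513425 in the Pcmtd1 to Sntg1 desert. Their medians were 10.6 and 10.8, and 4.82 and 6.67.

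Deserts without coding genes still hold non-coding genes. Long non-coding RNA genes contained 198 members, 11.3% (Wilson interval 9.90 to 12.9), and covered 8.29% of the desert sequence, and pseudogenes contained 17 (0.970%) and covered 0.895%. The most members lay in 5730522E02Rik (11), which spans 594 kb of the Bcl11a to Fancl gap, and in Gm32647 (10), which is 1284 kb long. Gm30687 (8) and Gm20757 (7) are shorter, at 212 and 204 kb. These counts are not adjusted for length.

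A microRNA host gene, Mir100hg (239 kb), spans the whole of the short desert between Ubash3b and the predicted coding gene Gm40514 (144 kb). All 5 members of this desert therefore lay in the gene by construction. Mir100hg carries Mir100, Mirlet7a-2 and Mir125b-1, microRNAs known to accumulate as stem cells differentiate. The mature 5′ products of the outer pair are printed, with the seed, bases 2 to 8, in capitals, because Mir125b-1 had more members within 10 kb than any other microRNA gene in the deserts. The seeds of the pair differ.
mmu-miR-100-5p: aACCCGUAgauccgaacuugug
mmu-miR-125b-5p: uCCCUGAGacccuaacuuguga

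The member nearest to Mir125b-1 lay 4.19 kb away, and 2 lay within 10 kb. The nearest to Mir100 and to Mirlet7a-2 lay 16.1 and 21.4 kb away. All 5 were of low to middle strength, from 4.13 to 9.64 in replicate 1 and from 4.76 to 6.80 in replicate 2, on 5 to 13 fragments. The strongest, at chr9:41594665-41594991, had 9.64 and 6.80.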

How the data were processed

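CUT&RUN peak lists of 4 SALL4 libraries were used, 2 per line. Groups came from the sample titles. Per the submitters' processing notes, Trim Galore 0.6.0, cutadapt 1.18, FastQC 0.11.8, BWA 0.7.17 and MACS2 2.1.1.20160309 were used, with build GRCm38 (mm10); settings and filters are not given in the sources used here. Each deposited list was called on 1 library. Each deposited line gives a score (the −log10 q-value times 10) and, at the summit, a fold enrichment, which is a ratio over local background. It also gives the deposited −log10 p-value, the same for q, and the summit's offset in bp.

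Overlapping lines of a list were merged, keeping the highest fold enrichment. Lists were merged at 1 bp. Deserts came from the 21900 coding genes of the GRCm38.p6 gene table of RefSeq, 20665 of them on chromosomes 1 to 19. Genes missing from that table would make false deserts, and assembly gaps and mappability were not used. Pileup and background are the whole number and the rate for which fold enrichment, with a pseudocount of 1, and the Poisson p-value match within 0.0001 in −log10 p, reached for 100% of intervals on chromosomes 1 to 19. The steps were tested on simulated data.

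The text names the 10 deserts with most regions, the 10 densest and 5 longest (density from 500 kb on), the 5 longest empty ones, the 10 strongest members, the 5 runs with most members and list genes beside deserts with at least 10; 1 desert that the rule names is not reported here. The Myc, Mir100hg, short-desert and promoter results were chosen after values were seen. The members and gene lists were chosen with earlier results of these data known. No test over regions was made, since regions are not replicates; Wilson intervals cover counting error only. Alternatives covered stricter lists, the distance, gene types, overlap and each replicate left out. A planned analysis of the sequence at summits was not run, as no genome was used here. Python 3.11.15, numpy 2.4.6, scipy 1.17.1, pandas 2.3.3 and matplotlib 3.10.9 were used.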

Additional observations from a re-analysis of the deposited data

How the results depend on the processing

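The density ratio stayed below 1 and the ratio of median fold enrichments above 1 under each alternative run for them. The genotype difference in log2(desert intervals + 1), 11.18, is set by the added 1, since the knockout counts are 0. It ran from 6.62 with every gene of the table counted to 11.81 at 200 kb, and the replicate block, pairing same-numbered libraries, left it at 11.18 (p = 0.5 by exact sign flips, the floor for 2 pairs). Both knockout counts are 0, so no shared deviation of equal numbers could be looked for.

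The number of members, 1753, became 623 when −log10 q had to reach 10, 441 at a fold enrichment of at least 10, 2729 at 200 kb, 898 at 500 kb and 68 with every gene of the table. All 5 settings change the number by construction. The density ratio, 0.307, was 0.361 at the strict q-value, 0.369 at the strict fold enrichment, 0.343 at 200 kb, 0.275 at 500 kb and 0.220 with every gene, and 0.296 to 0.301 in either replicate alone. The mean ratio of median fold enrichments, 1.06, was 1.11 at 500 kb, 1.17 with every gene, 1.04 at the strict fold enrichment and 1.10 with reciprocal overlap of 50%, and 1.08 to 1.11 in either replicate alone. The cause was not tested.

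The share of members in runs, 28.4%, was 10.6% at the strict q-value, 6.12% at the strict fold enrichment, 23.8% at 500 kb, 19.1% with every gene, 24.8% with reciprocal overlap, 18.7% and 43.6% with gaps of 10 and 50 kb, and 33.1% to 36.8% in either replicate alone. A shorter gap lowers it by construction, and for the other settings the cause was not tested. The leading desert by number was Celf4 to Pik3c3 with 23 members, but Cobl to Pom121l12 with 11 at the strict q-value and Bcl11a to Fancl with 34 at 200 kb. Low pileups limit single members, as the weakest rest on 4 fragments.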

Other observations

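Some stretches were free of coding genes only in the table's sense, since they hold antigen receptor V segments, which the table counts apart. Adam6a to Zfp386 on chromosome 12, with 86 V segments, held 9 members with fold enrichments up to 13.8 and 12.9 in replicates 1 and 2. Gm36448 to Dad1 on chromosome 14, with 96, held 8, with values up to 21.3 and 18.5. These were kept, as the rule asks only for the absence of coding genes.

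The widest member, at chr3:11210947-11213112 between Snx16 and Ralyl, was 2166 bp wide, with fold enrichments of 20.7 and 23.0. The most isolated, at chr16:80503167-80503766 between Tmprss15 and the neural adhesion gene Ncam2, lay 973 kb from the nearest consensus region and was not weak, with 15.7 and 10.4. The member farthest from coding genes lay 2205 kb away in the Olfm4 to Pcdh17 desert, at 4.13 and 4.53.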
